A study of Homo sapiens with 6 samples.

Results

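Genes that the transcription factor NRF2 drives, together with NFE2L2, which encodes NRF2, and KEAP1, which encodes its inhibitor, were followed after knockdown of DDX17 in A549 cells. The 37 genes were chosen by symbol as antioxidant, glutathione, NADPH and xenobiotic genes with an established link to NRF2. The rule uses none of the values measured here, although earlier results of these data were known when the list was chosen. The count table held all 37 of them among 29476 genes, and all 37 were among the 15615 genes that passed the expression filter of edgeR and were tested. A549 cells come from a human lung adenocarcinoma and are an established line in which KEAP1 is mutated. DDX17 is a DEAD-box RNA helicase that takes part in transcription and splicing.

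Polyadenylated RNA was sequenced from 3 cultures transfected with a nontargeting siRNA (siCtrl) and 3 transfected with an siRNA against DDX17 (siDDX17). The study addressed which transcripts depend on DDX17 in lung adenocarcinoma cells. Both groups were A549 of the same source, grown in MEM with serum and transfected with the same lipid reagent, so that the siRNA was the stated difference. The labels call the control a control plasmid, whereas the methods describe a nontargeting siRNA. A single cell line and a single DDX17 siRNA were used, no rescue is described, and the time from transfection to harvest, 48 h, is stated for RT-qPCR. Off-target effects of that siRNA cannot be told apart from the loss of DDX17.

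NRF2 binds as a heterodimer with a small MAF protein to antioxidant response elements near its target genes. In unstressed cells KEAP1 presents NRF2 to the CUL3 ubiquitin ligase and NRF2 is degraded, and oxidants or electrophiles that modify KEAP1 let NRF2 accumulate. In A549 the mutated KEAP1 no longer restrains NRF2, and the target genes are on without a stressor. Their products make glutathione and thioredoxin, supply NADPH, reduce carbonyls and quinones, handle heme and iron, and export conjugates.

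Each library held between 30658136 and 39182371 counts. DDX17 was at 177, 184 and 206 CPM (counts scaled to a common library size after TMM normalization) in the siCtrl libraries and at 32.1, 30.8 and 30.4 CPM in the siDDX17 libraries, a log2 fold change of -2.60 ± 0.0685 (SE). For cell type markers, CPM were taken relative to total counts without TMM. The limit of 1 CPM was applied to the mean over all libraries. All 6 epithelial markers looked at were above 1 CPM, with sums of 8008 to 8540 CPM in siCtrl and 6941 to 7311 CPM in siDDX17. Among 8 alveolar type 2 and lung lineage markers ABCA3 alone reached 1 CPM, and SFTPA1 and SFTPA2 were at 0 in every library. Of the markers of other cells, 2 of 8 leukocyte genes (CD14, CD68), 0 of 5 endothelial genes and 2 of 7 fibroblast genes (COL1A1, THY1) reached 1 CPM, while CD3E, CD3D, HLA-DRA and COL1A2 were at 0. Of the siCtrl libraries, siCtrl 1 was highest for 12 of the 37 genes, lowest for 21 and in between for 4. The median deviation of the 37 genes from their siCtrl means, in log2 CPM, was -0.0445 in siCtrl 1. It was 0.0417 in siCtrl 2 and 0.0139 in siCtrl 3. Deviations from a shared mean balance each other, so these values cannot show whether siCtrl 1 alone was unusual. Where leaving siCtrl 1 out changed the call or sign of any of the 37, both results are given below.

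To show the elements through which NRF2 acts, the core TGACNNNGC was searched on both strands of the RefSeq promoter windows of GRCh38.p14, which run from 250 bases before to 50 bases after a start site. At least 1 match was present in 10 of the 28 genes with a window (35.7%). By window, 11 of 36 (30.6%) held it, compared with 13.3% of all 35116 windows and 14.5% of the 15009 windows of tested genes. The stretches below are shown because they come from genes that went in different directions after DDX17 knockdown. They are written 5′ to 3′ on the strand of the gene with the core in capitals, and GCNNNGTCA is the core read from the other strand.

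The GCLM window lies at chr1:93909436-93909484 (minus strand), with the core starting at position -34 from the start site. That of GPX2 lies at chr14:64942839-64942887 (minus strand, -122), that of PGD at chr1:10398843-10398891 (plus strand, -201) and that of IDH1 at chr2:208255186-208255234 (minus strand, -143). The stretch of TXNRD1 lies at chr12:104215660-104215708 (plus strand, -99), that of EPHX1 at chr1:225825256-225825304 (plus strand, -78) and that of ME1 at chr6:83431160-83431208 (minus strand, -137).
GCLM: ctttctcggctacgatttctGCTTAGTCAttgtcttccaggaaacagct
GPX2: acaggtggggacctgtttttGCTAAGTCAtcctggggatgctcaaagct
PGD: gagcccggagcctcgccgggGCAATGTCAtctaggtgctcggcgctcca
IDH1: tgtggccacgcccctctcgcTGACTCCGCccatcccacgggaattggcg
TXNRD1: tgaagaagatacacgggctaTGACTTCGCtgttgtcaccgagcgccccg
EPHX1: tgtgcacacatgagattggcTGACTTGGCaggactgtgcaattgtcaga
ME1: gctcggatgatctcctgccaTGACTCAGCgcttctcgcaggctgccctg

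KEAP1 held GCTTAGTCA at position -31 and TGACACGGC at position -54. PIR held GCTGAGTCA at position 26, after its start site. Further matches, not printed above, were GCAAAGTCA at position -159 in CBR1, GCACCGTCA at position 11 in ME1 and GCTCCGTCA at position -8 in TXNRD1. At another start site TXNRD1 also held GCTTTGTCA at position -102. Of the 10 genes with the core, 6 had lower and 2 had higher levels in siDDX17 by the test given next, and 2 did not pass it. Of the 18 genes with a window but no core, 12 were lower, 1 was higher and 5 did not pass. The median log2 fold changes of these sets were -0.29 and -0.30. A match of these letters does not show that NRF2 binds there, and elements farther from the start site were not searched.

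The 37 genes were abundant in siCtrl. Levels between genes were compared in FPKM, which the authors had normalized for gene length. The median of the 37 genes was 213 FPKM against 2.77 FPKM for all tested genes, 28 of them lay above the 90th percentile, and 11 were among the 100 genes with the highest FPKM. The ferritin subunits led, with FTL at 10948 FPKM and FTH1 at 6031 FPKM, followed by the aldose reductase family members AKR1B10 at 2445 ± 139 FPKM and AKR1B1 at 2314 ± 83.9 FPKM (SD, n = 3). At the other end were CBR3 at 7.67 ± 1.63 FPKM, NFE2L2 at 12.4 ± 2.91 FPKM and GCLM at 14.0 ± 1.81 FPKM. The transcripts of the transcription factor were thus among the scarcest of the 37, above those of CBR3.

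**Figure D1:**
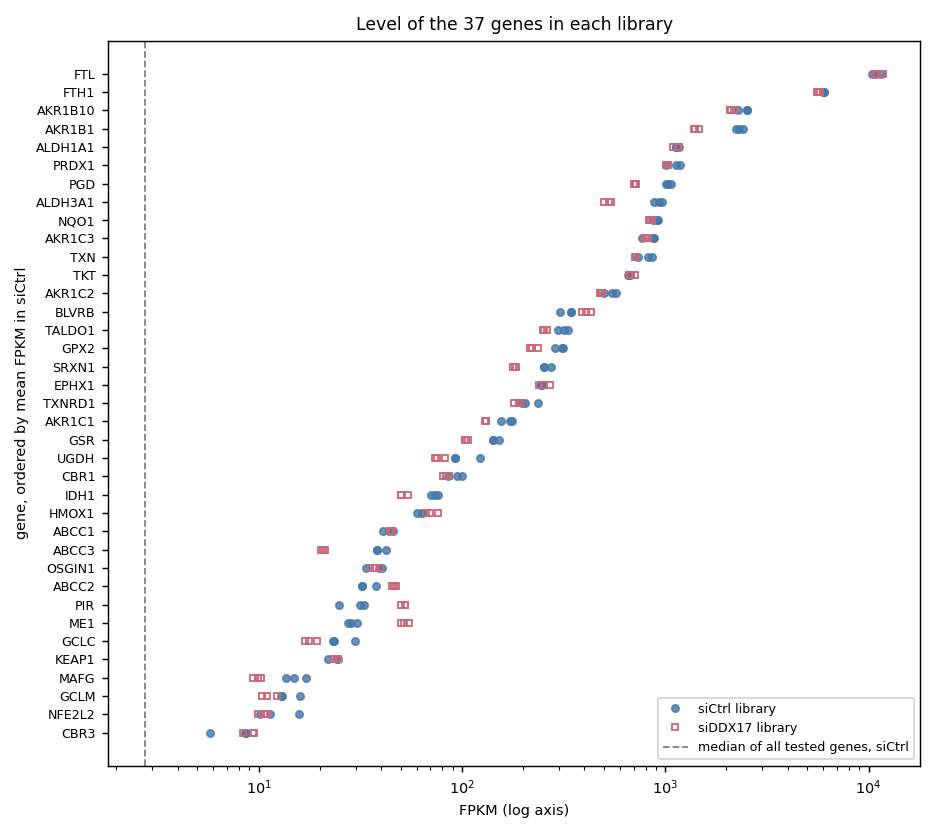
FPKM of each of the 37 genes in the 3 siCtrl libraries (filled circles) and the 3 siDDX17 libraries (open squares) on a log axis, with genes ordered by their mean in siCtrl and a dashed line at the median of all tested genes, 2.77 FPKM. Every gene lies to the right of that line in every library, and the open squares of ALDH3A1, ABCC3, PGD and MAFG lie to the left of their circles while those of ME1 and PIR lie to the right.

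In siDDX17, 24 of the 37 genes fell and 3 rose at an adjusted p under 0.05 (quasi-likelihood test of edgeR, adjusted by Benjamini-Hochberg over all tested genes), and 10 did not pass. The genes that fell make up 64.9% of the 37, compared with 24.3% of all tested genes, and the genes that rose make up 8.11%, compared with 24.5%. Among genes of at least 100 CPM, which lean to lower values in general, 21 of 31 of the NRF2 genes fell and 2 rose, against 35.5% and 20.5% of the 1515 tested genes of that level. The fitted log2 fold change was below 0 for 31 of the 37, with a median of -0.29 against 0.0051 over all tested genes. With the limits stated in the study's methods (unadjusted p under 0.01 and a fold change of 1.5), 9 fell and 2 rose, against 8.03% and 11% of all tested genes. These are calls of the fit used here, not the study's own. At these limits the fit called 1254 tested genes lower and 1713 higher. Both numbers are larger than those the study reported, and the reason was not tested. Only ABCC3 was past a log2 fold change of 1 in either direction, against 2.92% of all tested genes lower and 4.65% higher.

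The siDDX17 libraries lay below every siCtrl library for 25 of the 37 genes, against 27.7% of all tested genes, and above every siCtrl library for 4, against 28.8%. The falls that passed ranged from -0.19 to -1.06 on the log2 scale, so most were modest. When the libraries were scaled by their total counts alone, the median over all tested genes moved up by 0.122, and the split became 19 lower and 5 higher. In this setting NFE2L2, NQO1, AKR1C3, PRDX1 and FTH1 no longer passed. The authors' FPKM, which are also scaled by totals, gave 16 lower and 5 higher on log2(FPKM + 1), and there CBR1, TXNRD1 and TXN did not pass either. Relative to the median of all genes the 37 moved little between settings, with a difference in medians between -0.34 and -0.22, and 16 of the 24 falls and all 3 rises passed in the same direction under every alternative without a fold limit.

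**Figure D2:**
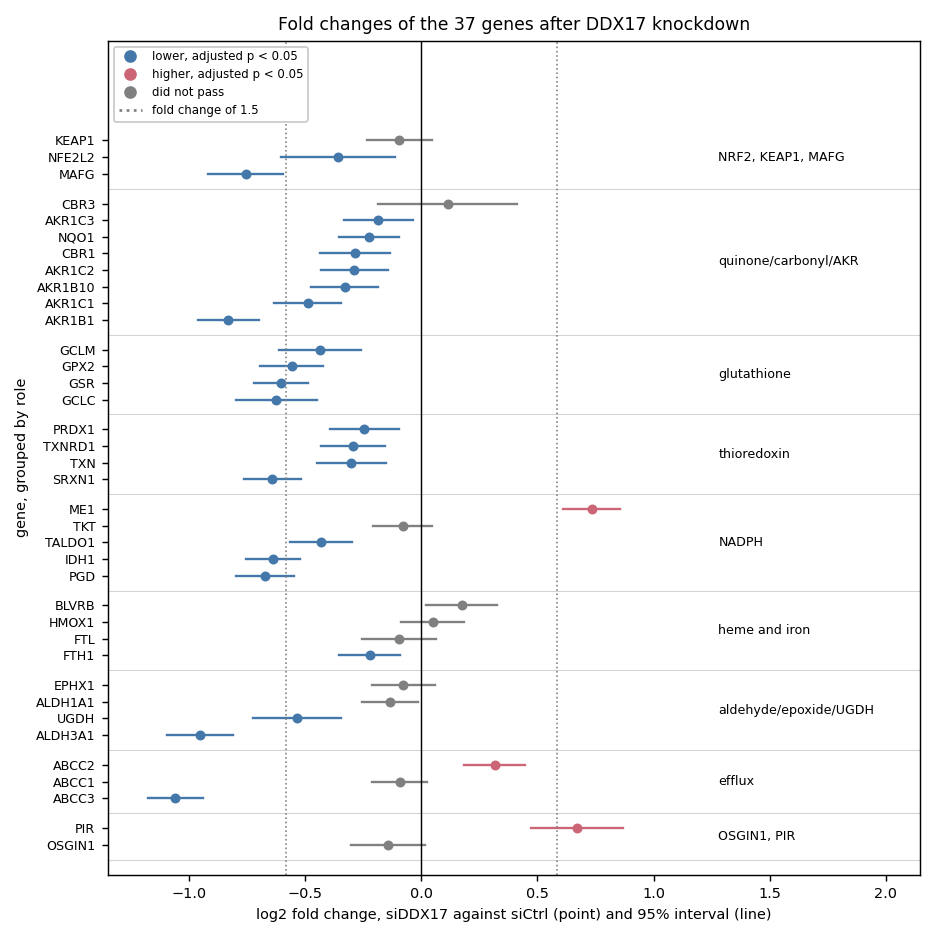
Fitted log2 fold change (point) and 95% interval (line) of each of the 37 genes, grouped by role, with blue for genes that were lower and red for genes that were higher at an adjusted p under 0.05, grey for the rest, and dotted lines at a fold change of 1.5. Blue points fill the glutathione and thioredoxin groups, red points stand at ME1, ABCC2 and PIR, and the intervals of the grey genes lie between -0.30 and 0.41.

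Shares of all counts use no TMM factors and amount to scaling by total counts. As such a share, the 37 genes took 5.27, 5.45 and 5.45% in the siCtrl libraries and 4.75, 4.91 and 4.79% in the siDDX17 libraries. The groups did not overlap. FTH1 and FTL together made up 1.98 to 2.08% in siCtrl and 1.92 to 2.05% in siDDX17, and those ranges did overlap. The other 35 genes fell from between 3.29 and 3.43% to between 2.83 and 2.86%. The reductases of quinones, carbonyls and aldehydes held the largest part of this difference, at 1.57 to 1.71% in siCtrl and 1.37 to 1.39% in siDDX17.

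**Figure D3:**
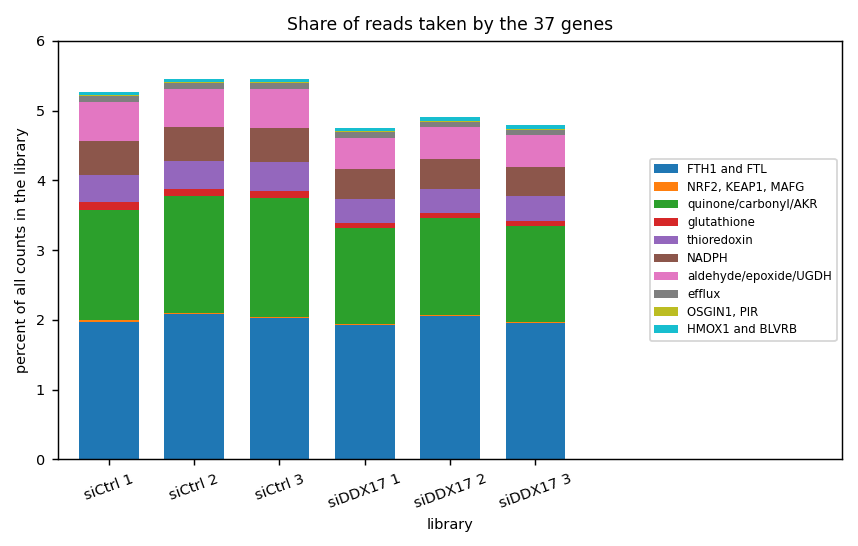
Stacked bars of the percent of all counts taken by the 37 genes in each library, divided by role, with the ferritin genes FTH1 and FTL at the base. The bars reach 5.27 to 5.45% in siCtrl and 4.75 to 4.91% in siDDX17, and the ferritin part differs less between groups than the reductase part above it.

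The regulators differed among themselves. NFE2L2 was at 76.2, 57.8 and 50.5 CPM in siCtrl and at 48.8, 45.5 and 49.4 CPM in siDDX17. Its groups did not overlap, but siCtrl 1 was high and the lowest siCtrl library was close to the siDDX17 values. The log2 fold change was -0.36 ± 0.113 (SE) with an adjusted p of 0.0178 by edgeR's quasi-likelihood test, and without siCtrl 1 it was -0.18 with an adjusted p of 0.0102. Without siDDX17 2 the call was lost (log2 fold change -0.33, adjusted p = 0.0917, edgeR). In the GENCODE annotation of GRCh38, NFE2L2 spans chr2:177218667-177392756 on the minus strand and its exons share 3509 bases with those of HNRNPA3 on the plus strand. HNRNPA3 had a mean count at 627% of that of NFE2L2 and a log2 fold change of 0.42. The libraries keep strand, but the use of strand in counting is not given in the sources used here, so a contribution of HNRNPA3 reads to the NFE2L2 counts was not tested.

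KEAP1 was at 74.0, 85.8 and 84.3 CPM in siCtrl and at 76.2, 78.5 and 73.6 CPM in siDDX17. The groups overlapped, with siCtrl 1 among the siDDX17 values, and the log2 fold change of -0.10 did not pass (95% interval -0.24 to 0.04). Without siCtrl 1 KEAP1 was lower by the test (log2 fold change -0.17, adjusted p = 0.00624, edgeR), whereas with scaling by total counts the sign turned. MAFG, a small MAF protein that pairs with NRF2 on DNA, was at 95.9, 87.1 and 77.7 CPM in siCtrl and at 48.9, 54.0 and 51.3 CPM in siDDX17. All siDDX17 libraries lay far below all siCtrl libraries, and MAFG fell by 0.76 on the log2 scale (adjusted p = 2.84e-06, edgeR). MAFG shares 105 exon bases with SIRT7 on the same strand, which had a log2 fold change of -0.51.

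Of the 8 genes for reduction of quinones, carbonyls and aldehydes, 7 fell and CBR3 did not pass. AKR1B1, aldose reductase, was at 3464, 3524 and 3694 CPM in siCtrl and at 1970, 2099 and 1934 CPM in siDDX17, a fall of 0.83 on the log2 scale (adjusted p = 1.71e-07, edgeR). Its groups were far apart and each library was close to the others of its group. AKR1B10, a neighbouring retinal and aldehyde reductase and the reductase with the highest FPKM, was at 3884, 4471 and 4396 CPM in siCtrl and at 3475, 3398 and 3269 CPM in siDDX17. The groups did not overlap and the log2 fold change was -0.33 (adjusted p = 0.00115, edgeR).

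The aldo-keto reductases AKR1C1, AKR1C2 and AKR1C3, which reduce steroids and prostaglandins, lie next to each other on chromosome 10 and are similar in sequence. Their log2 fold changes were -0.49, -0.29 and -0.19. Reads that fit more than 1 of them were not kept by the authors, so their separate values are uncertain. With the reads of the 3 genes summed, the log2 fold change was -0.29 ± 0.0693 (SE) with an adjusted p of 0.00332 by edgeR's quasi-likelihood test. The call of AKR1C3 had an adjusted p of 0.0391 and was lost when siCtrl 2, siCtrl 3 or any siDDX17 library was left out. NQO1, the quinone reductase most often used as a readout of NRF2, fell by 0.22, from between 2912 and 3179 CPM to between 2582 and 2713 CPM, without overlap. The carbonyl reductase CBR1 fell by 0.29, while its neighbour CBR3 was at 7.24 to 11.3 CPM in siCtrl and 9.76 to 11.1 CPM in siDDX17, with a log2 fold change of 0.11 that was -0.08 without siCtrl 1.

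All 4 genes for glutathione synthesis and use fell. GCLC, the catalytic subunit of glutamate-cysteine ligase, which makes the first and rate-limiting step, was at 160, 130 and 129 CPM in siCtrl and at 89.4, 86.5 and 96.3 CPM in siDDX17. The groups did not overlap, although siCtrl 1 was above the other siCtrl libraries, and the log2 fold change was -0.62 (adjusted p = 3.05e-05, edgeR), or -0.53 without siCtrl 1. GCLM, its modifier subunit, fell by 0.44 and had the same order of libraries in siCtrl, with siCtrl 1 the highest.

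GSR, which reduces oxidized glutathione with NADPH, was at 510, 497 and 484 CPM in siCtrl and at 334, 325 and 321 CPM in siDDX17. The spread within groups was small beside the gap between them, and the log2 fold change was -0.61 (adjusted p = 9.6e-07, edgeR). GPX2, a glutathione peroxidase of epithelia and the glutathione gene with the highest FPKM, was at 361, 381 and 341 CPM in siCtrl and at 236, 261 and 238 CPM in siDDX17. Its log2 fold change of -0.56 (adjusted p = 8.69e-06, edgeR) was just short of a fold of 1.5.

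All 4 genes of the thioredoxin and peroxiredoxin group fell as well. SRXN1, sulfiredoxin, which restores overoxidized peroxiredoxins, was at 728, 764 and 804 CPM in siCtrl and at 496, 499 and 476 CPM in siDDX17, a fall of 0.64 (adjusted p = 1.16e-06, edgeR). PRDX1, a peroxiredoxin that removes hydrogen peroxide, was at 1351, 1583 and 1607 CPM in siCtrl and at 1260, 1289 and 1281 CPM in siDDX17. For PRDX1 siCtrl 1 lay close to the siDDX17 libraries, and the log2 fold change was -0.25 (adjusted p = 0.00944, edgeR), or -0.33 without siCtrl 1. TXN, thioredoxin, fell by 0.30 and TXNRD1, the reductase that recycles it, fell by 0.29.

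The 5 genes that supply NADPH or feed the pentose phosphate pathway went in different directions. PGD, 6-phosphogluconate dehydrogenase of the oxidative pentose phosphate pathway, was at 2027, 2175 and 2187 CPM in siCtrl and at 1332, 1369 and 1303 CPM in siDDX17, and fell by 0.67 (adjusted p = 7.72e-07, edgeR). IDH1, the cytosolic isocitrate dehydrogenase, was at 228, 220 and 224 CPM in siCtrl and at 140, 142 and 149 CPM in siDDX17, and fell by 0.64 (adjusted p = 6.14e-07, edgeR). For both genes the groups were well separated.

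ME1, malic enzyme, which also makes NADPH in the cytosol, was at 110, 104 and 104 CPM in siCtrl and at 168, 178 and 183 CPM in siDDX17. Every siDDX17 library was above every siCtrl library, and ME1 rose by 0.73 on the log2 scale (adjusted p = 3.24e-07, edgeR), the largest rise of the 37 genes. In the non-oxidative branch, TALDO1, transaldolase, fell by 0.43. TKT, transketolase, was at 2122 to 2267 CPM in siCtrl and 2015 to 2181 CPM in siDDX17 and did not pass (95% interval of the log2 fold change -0.21 to 0.05), and its sign turned with scaling by total counts. Without siCtrl 1 TKT passed as lower (-0.11, adjusted p = 0.0296, edgeR).

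Of the 4 heme and iron genes, FTH1 fell and the other 3 did not pass. FTL, the ferritin light chain and the most abundant of the 37 by FPKM, was at 9737, 11342 and 10445 CPM in siCtrl and at 9449, 10506 and 9506 CPM in siDDX17. The groups overlapped and the log2 fold change was -0.10 (95% interval -0.26 to 0.06), with the opposite sign when libraries were scaled by total counts. Without siCtrl 1 FTL passed as lower (-0.16, adjusted p = 0.00386, edgeR). FTH1, the ferritin heavy chain with ferroxidase activity, fell by 0.22 (adjusted p = 0.00847, edgeR), a call that was lost without siDDX17 1 or siDDX17 3. Both genes have many processed pseudogenes, and with those reads added the log2 fold changes were again -0.22 for FTH1 and -0.10 for FTL.

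HMOX1, heme oxygenase 1, the classic stress-induced target, was at 123 to 126 CPM in siCtrl and 121 to 140 CPM in siDDX17, with a log2 fold change of 0.05 (95% interval -0.09 to 0.18). It passed as higher with scaling by total counts (0.17, adjusted p = 0.0324, edgeR) and on both FPKM scales. BLVRB, a biliverdin and flavin reductase, was at 284 to 337 CPM in siCtrl and 340 to 382 CPM in siDDX17. Its groups did not overlap by a narrow gap, and its log2 fold change of 0.17 had an adjusted p of 0.0602 by edgeR's quasi-likelihood test. BLVRB passed as higher under 7 of 15 alternatives, among them the replicate block (0.18, adjusted p = 0.0279) and scaling by total counts (0.30, adjusted p = 0.00154), and was at 0.09 without siCtrl 1.

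**Figure D4:**
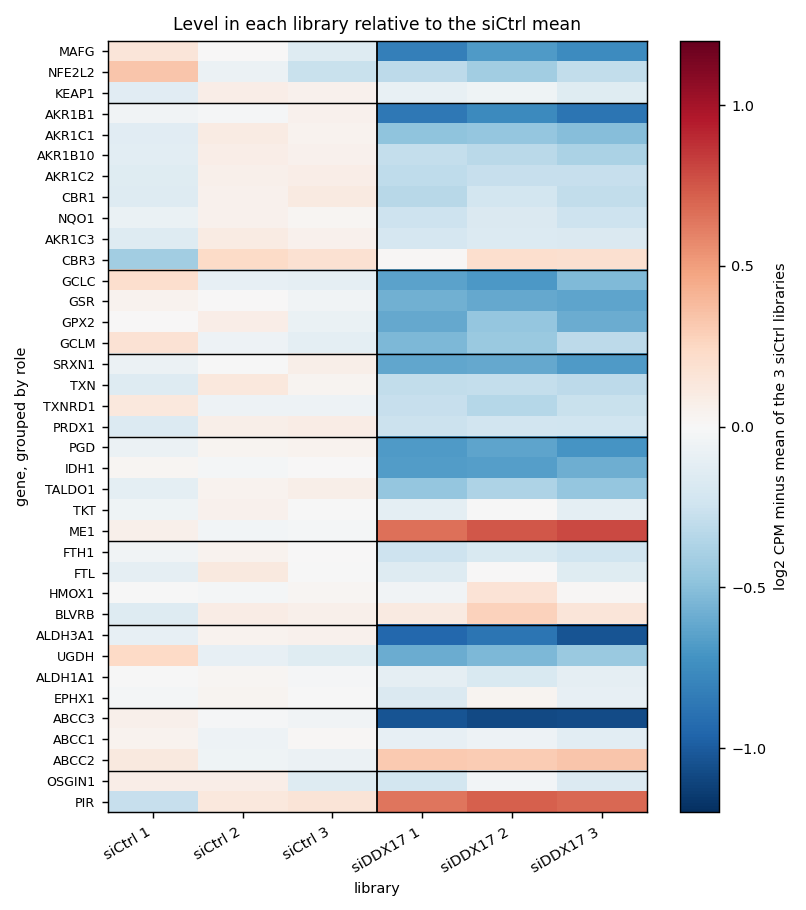
Log2 CPM of each of the 37 genes in each library minus the mean of the 3 siCtrl libraries, with genes grouped by role and lines between roles and groups. The siDDX17 columns are blue for most genes and red for ME1, PIR and ABCC2, and in siCtrl 1 NFE2L2 and UGDH are above, and CBR3 and PIR below, the other siCtrl libraries.

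ALDH3A1, an aldehyde dehydrogenase that oxidizes aromatic and lipid aldehydes, was at 2129, 2353 and 2369 CPM in siCtrl and at 1186, 1242 and 1109 CPM in siDDX17. It fell by 0.95 on the log2 scale (adjusted p = 1.09e-07, edgeR), or by 48.4%, the second largest fall of the 37. ALDH1A1, the retinaldehyde dehydrogenase and the gene with the highest FPKM in its group, was at 2636, 2673 and 2606 CPM in siCtrl and at 2445, 2319 and 2443 CPM in siDDX17. Its groups did not overlap, but the log2 fold change of -0.14 had an adjusted p of 0.0619 (edgeR) and passed without siCtrl 1 (adjusted p = 0.00487). It also passed with DESeq2 and without the low-count filter. In FPKM, however, ALDH1A1 had means of 1146 in siCtrl and 1141 in siDDX17, and the groups overlapped. UGDH, which makes UDP-glucuronate for glucuronidation, fell by 0.54, and by 0.42 without siCtrl 1. EPHX1, microsomal epoxide hydrolase, was at 543 to 564 CPM in siCtrl and 490 to 567 CPM in siDDX17 and did not pass, and its sign turned with scaling by total counts.

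The 3 efflux pumps of the ABCC family, which export glutathione and glucuronide conjugates, each behaved differently. ABCC3 was at 290, 274 and 269 CPM in siCtrl and at 136, 131 and 132 CPM in siDDX17, and its log2 fold change of -1.06 ± 0.0551 (SE) was the largest fall of the 37 (adjusted p = 9.41e-09, edgeR). ABCC2 rose by 0.32, from between 215 and 245 CPM to between 278 and 285 CPM, without overlap (adjusted p = 0.000792, edgeR). ABCC1, the pump with the highest FPKM of the 3, was at 324, 301 and 317 CPM in siCtrl and at 293, 301 and 287 CPM in siDDX17. The groups of ABCC1 overlapped slightly and its log2 fold change of -0.09 did not pass (95% interval -0.21 to 0.02), with the sign turned under scaling by total counts.

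PIR, pirin, an iron-binding nuclear protein, was at 40.9, 54.0 and 55.3 CPM in siCtrl and at 77.5, 81.6 and 79.8 CPM in siDDX17. All siDDX17 libraries were higher, siCtrl 1 was the lowest of all, and PIR rose by 0.67 (adjusted p = 5.12e-05, edgeR). Without siCtrl 1 the rise was 0.53, which is under a fold of 1.5. OSGIN1, an oxidative stress-induced growth inhibitor and the more abundant of these by FPKM, was at 118, 118 and 101 CPM in siCtrl and at 96.0, 109 and 100.0 CPM in siDDX17. The groups overlapped and its log2 fold change of -0.14 did not pass, whereas without siCtrl 3 it did (-0.22, adjusted p = 0.0188, edgeR). In FPKM the means of OSGIN1 were 37.8 in siCtrl and 37.4 in siDDX17.

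Pairs of these genes that share a family, a complex or a role were then compared as FPKM ratios within each library. No scaling factor can change this measure. The 11 pairs were chosen after the fold changes were known, and the ratios are given without a test. Separation of the groups was therefore partly set by the choice, and no share over other pairs was computed. ME1 to IDH1 stood at 0.400, 0.391 and 0.384 in siCtrl and at 0.991, 1.04 and 1.02 in siDDX17, so that ME1, the scarcer transcript in control cells, came level with IDH1. ABCC3 to ABCC2 went from between 1.12 and 1.19 to between 0.439 and 0.457, which turned the order of the 2 pumps. ABCC3 to ABCC1 went from between 0.872 and 0.936 to between 0.448 and 0.475.

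ALDH3A1 to ALDH1A1 was 0.755 to 0.849 in siCtrl and 0.424 to 0.500 in siDDX17. PGD to TKT was 1.54 to 1.61 in siCtrl and 1.01 to 1.06 in siDDX17, and AKR1B1 to AKR1B10 was 0.890 to 1.01 in siCtrl and 0.640 to 0.697 in siDDX17. Smaller shifts, again without overlap between the groups, were present for the subunits GCLC and GCLM, with ratios of 1.78 to 1.86 in siCtrl and 1.54 to 1.70 in siDDX17, and for FTH1 and FTL, with 0.525 to 0.576 in siCtrl and 0.486 to 0.516 in siDDX17.

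**Figure D5:**
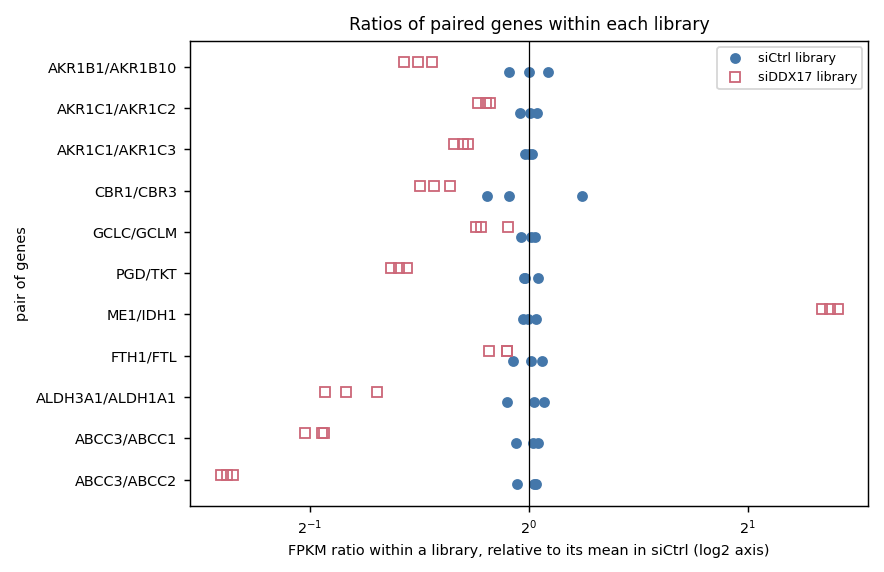
FPKM ratio of the first to the second gene of each of 11 pairs in each library, divided by the mean of that ratio in siCtrl, on a log2 axis, with filled circles for siCtrl and open squares for siDDX17 libraries. The squares lie to the left of the circles for 10 pairs and to the right for ME1/IDH1, and no pair shows an overlap between the groups. The pairs were chosen with the fold changes known.

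Around these 37 genes, 147 further genes of the same pathways were listed, of which 140 were tested, and 30 rose and 56 fell. With scaling by total counts this turned to 43 that rose and 34 that fell. In that setting the median over all tested genes moved up by 0.122, and the shares of all tested genes called are not given here. With TMM scaling the background over all tested genes is the 24.5% higher and 24.3% lower given above. The median log2 fold change of the 140 was -0.12. In a list built around KEAP1, beta-TrCP, protein degradation and p62, 6 of 12 genes fell and 2 rose. They include SQSTM1, the autophagy receptor p62 that binds KEAP1, which was at 2842, 2797 and 2554 CPM in siCtrl and at 1128, 1250 and 1152 CPM in siDDX17 and fell by 1.21 (adjusted p = 1.42e-08, edgeR). Of 7 genes for partners and BACH repressors 2 fell and 2 rose. BACH1, which competes with NRF2 for the same elements, was at 22.3, 12.1 and 13.1 CPM in siCtrl and at 9.13, 9.96 and 11.2 CPM in siDDX17. It fell by 0.65, and by 0.34 without siCtrl 1.

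Of 30 further glutathione genes tested 14 fell and 3 rose. SLC7A11, the cystine transporter, fell by 0.43, and by 0.24 without siCtrl 1. CHAC1, which degrades glutathione, was at 71.9, 29.3 and 3.52 CPM in siCtrl and at 5.45, 6.06 and 5.32 CPM in siDDX17. Its groups overlapped although it passed, and the log2 fold change went from -2.63 to -1.50 without siCtrl 1. In the thioredoxin list 4 of 16 fell and 4 rose, among them the endoplasmic reticulum peroxiredoxin PRDX4, which rose from between 71.2 and 81.9 CPM to between 193 and 201 CPM. SESN2, sestrin 2, was at 67.1, 32.3 and 17.3 CPM in siCtrl and 16.5, 18.7 and 16.0 CPM in siDDX17, with overlap, and its log2 fold change of -1.19 was -0.53 without siCtrl 1.

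In the NADPH and pentose phosphate list 5 of 14 fell and 3 rose. NADK, the cytosolic NAD kinase that makes NADP, fell by 1.04, from between 48.1 and 51.2 CPM to between 23.2 and 24.8 CPM, and SHPK, sedoheptulokinase, fell by 1.27.

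The aldo-keto, carbonyl and aldehyde list was even, with 8 of 22 genes lower and 8 higher, and the largest fall was that of the short-chain dehydrogenase DHRS13, -2.16 at a mean of 10.5 CPM in siCtrl. In the heme and iron list 7 of 18 fell and 3 rose, and in the conjugation and efflux list 6 of 14 fell and 4 rose. The latter included CYP4F11, a fatty acid hydroxylase, which fell by 1.02, and CYP1B1, a target of the aryl hydrocarbon receptor, which rose by 1.94, from between 9.31 and 13.2 CPM to between 40.1 and 43.4 CPM. Of 7 other genes often listed as NRF2 targets, 4 fell and 1 rose.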

How the data were processed

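RNA-seq of polyadenylated RNA was performed on 3 siCtrl and 3 siDDX17 cultures of A549 cells. The authors described the cultures as biological replicates. The libraries were stranded by dUTP marking. After trimming, the authors aligned the reads to GRCh38 by TopHat2 and deposited, for each gene, the raw count of reads that mapped to a single place. They also deposited FPKM values, which account for library size and gene length and were rounded. The submitters' processing notes name bcl2fastq, TopHat2 and edgeR. The counting program, annotation and use of strand are not given in the sources used here, so that counts of genes with overlaps, antisense partners or near-identical copies are uncertain, and dropping multiply mapped reads lowers the counts of such genes. FPKM were present for all but 234 of the 29476 genes.

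The counts were normalized by TMM, filtered by expression and fitted as a whole table with the quasi-likelihood tests of edgeR 4.0.16 (R 4.3.3), with Benjamini-Hochberg adjustment over 15615 genes. Genes with an adjusted p under 0.05 were called, without a fold limit. The limits of the study's methods (p under 0.01, fold change of 1.5) and an absolute log2 fold change over 1 were applied beside it. CPM are counts relative to the TMM-scaled library total, except for the cell type markers, where the unscaled total was used. Intervals are 95% intervals of the fitted log2 fold change. Alternatives were RLE, upper quartile and library size scaling, DESeq2 1.42.0, omission of the filter or a minimum of 10 counts per library, a replicate block, limma 3.58.1 with a pseudocount of 1 or 0.1 on FPKM, omission of each library, and summed reads of AKR1C genes and of ferritin genes with their pseudogenes. The fit was also run on simulated counts in which few genes changed and all genes had the same dispersion. That setting is simpler than the data and does not test the choice of scaling.

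The members and the lists were chosen with earlier results of these data known. Values of every library are given for NFE2L2, KEAP1, genes past the limits of the study's methods and, in each role, the gene with the highest FPKM. Genes outside the 37 were named where they passed an absolute log2 fold change of 1, besides SQSTM1, BACH1, SLC7A11 and a gene set by name that is not reported here. HNRNPA3 and SIRT7 were named for their overlaps. Promoter windows came from RefSeq (GRCh38.p14) and matched 28 of the 37 symbols. Gene positions came from GENCODE release 44. Splicing, TCGA samples and proteins were not analysed here.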

Additional observations from a re-analysis of the deposited data

How the results depend on the processing

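Of 560 comparisons of a gene of the 37 with an alternative, 496 kept their direction and call, 30 lost the call, 17 gained one and 17 changed sign. The number of genes that rose was 5 with library size scaling and on both FPKM scales. It was 4 with upper quartile scaling, without the low-count filter and with a minimum of 10 counts per library. It was also 4 with the replicate block, where 24 fell. With an absolute log2 fold change over 1, 1 fell and 0 rose. Without single libraries, 22 to 28 fell and 3 rose. The 28 came without siCtrl 1, where calls were also more frequent over all genes. In that fit 27.0% of 15996 tested genes fell and 26.4% rose. At the limits of the study's methods, 4 fell with library size scaling, 3 on log2(FPKM + 1) and 4 on log2(FPKM + 0.1), and 8 to 11 fell and 1 to 2 rose without single libraries, the 1 being ME1 without siCtrl 1. The median log2 fold change of the 37 was -0.165 with library size scaling and -0.157 on both FPKM scales, and -0.332 to -0.251 without single libraries. Of the further pathway genes, 34 fell and 43 rose with library size scaling, 29 fell and 42 rose on log2(FPKM + 1), and 29 fell and 41 rose on log2(FPKM + 0.1). In these settings the median over all tested genes was 0.128, 0.0678 and 0.123, and the shares of all tested genes called are not given here. With library size scaling, log2(FPKM + 1) and log2(FPKM + 0.1), in that order, the signs turned for KEAP1 (0.0281, 0.0338, 0.0351), TKT (0.0419, 0.0471, 0.0471), FTL (0.0265, 0.0323, 0.0323), EPHX1 (0.0452, 0.0487, 0.0488) and ABCC1 (0.0275, 0.0343, 0.0350). Without single libraries CBR3 ranged from -0.0776 (without siCtrl 1) to 0.208 and HMOX1 from -0.0150 (without siDDX17 2) to 0.0923. These scalings share the use of library totals, and the cause of the difference between scalings was not tested. Libraries with the same replicate number did not deviate together (correlations of 0.00698, 0.0407 and -0.0564), so the numbers were not taken as pairs. Each of the 37 genes had at least 245 counts in every library, and the tests rest on 3 libraries a group.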
